A study of Mus musculus with 6 samples.

Results

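Blood monocytes carried 300 long clusters of open chromatin that every library shared, and these clusters are described here. They were built from broad peaks of ATAC-seq, an assay in which the Tn5 transposase cuts and tags accessible DNA. Overlapping or touching peaks of 6 libraries were merged on chromosomes 1 to 19 into 90477 regions, of which 67099 had a peak in all 6 libraries. Setting aside regions that came within 1 kb of where a protein-coding gene begins or ends left 54150. Regions no more than 12500 bp apart were then stitched into 22586 clusters, 11405 of which (50.5%) held a single region. The 300 clusters with the largest summed region width hold 4635 member regions, 8.56% of the 54150 shared regions away from gene ends and 9.73% of their summed width. The members were thus chosen by 2 measured values, peak width and presence in every library, and both are given as description only.

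The mice of both groups received diphtheria toxin. The DTR group comprised 3 monocyte libraries from thrombocytopenic mice of the PF4cre-iDTR genotype, in which the Pf4 promoter, active in megakaryocytes, drives Cre and Cre switches on the receptor for the toxin, so that megakaryocytes and platelets are lost. The WT group comprised 3 monocyte libraries from wild-type mice. The labels give neither age nor sex, nor whether each library came from its own animal or a pool. Every p-value below thus weighs a difference against the spread between these libraries, which may be technical. In bulk libraries a change in the mix of cells and a change within cells cannot be told apart.

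Stretches of chromatin that hold many nearby enhancers, often called stretch or super-enhancers when they are marked by acetylated histones or Mediator, lie around genes that define a cell type. In monocytes the transcription factors PU.1, C/EBPβ, IRF8 and RUNX bind such enhancers. The clusters here rest on accessibility alone, with no histone mark measured, and are called stitched clusters for that reason.

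The libraries held 76015 to 81980 peaks on these chromosomes, covering 47.0 to 48.9 Mb in the DTR and 42.8 to 46.5 Mb in the WT libraries. Covered length thus differed between the groups over the whole genome, without overlap. No read counts come with the peaks, and sequencing depth is therefore unknown. A peak in all 6 libraries lay at a gene end of 15 of 15 classical monocyte markers, among them Ly6c2, Ccr2 and Lyz2, and of 12 of 13 non-classical ones. The same held for 6 of 12 B cell markers, 8 of 15 T and NK cell markers and 8 of 15 megakaryocyte and platelet markers. All 10 dendritic cell markers, 11 of 14 macrophage, 9 of 14 neutrophil and 7 of 8 stem and progenitor markers had such a peak as well. It was found at 5 of 10 erythroid, 2 of 11 basophil, mast cell and eosinophil and 4 of 15 non-blood markers. Over all 20661 protein-coding genes, 12660 had a shared peak at a gene end. The shares of the B cell, T and NK cell and platelet lists were below that, so nothing is read from them about those cells.

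The name non-promoter is not wholly true of the members. The rule removed the outer ends of protein-coding genes, while inner promoters and starts of non-coding RNAs stayed in. Of the 4635 member regions, 159 (3.43%) overlapped a RefSeq transcript start window, the 250 bases before a start and the 50 after it, and 77 (1.66%) overlapped one of a protein-coding gene. The share was 3.96% in the other shared regions away from gene ends. In all, 123 windows lay whole inside 106 member regions of 90 clusters, 64 of them of protein-coding and 59 of long non-coding RNA (lncRNA) genes. They include starts of Nr4a1, Runx3, Syk and Srgn, and of the lncRNAs Malat1 and Morrbid, the last of which controls the survival of short-lived myeloid cells.

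These windows are the only stretches of the members whose sequence was at hand, and 2 sets are shown. The first set shows starts with a match to a motif that the rule did not use. The 7 letters AGGAAGT, the core of sites bound by PU.1, occurred on either strand in 25 of the 123 windows (20.3%), against 178 of 1617 windows (11%) inside the other shared regions away from gene ends. The share was 8.08% of the 10812 windows inside any shared region and 7.71% of all 31396 windows of the same length. Most of the 25 were windows of lncRNA genes, which made up 59 of the 123, and only a minority were of protein-coding genes. The shares of this and the other motifs were not matched for gene class or GC content. Some windows of neighbouring starts overlap and share a match, so the windows are not independent. Matches are descriptions of letters and not sites of binding. The 5 windows below, 1 per member region, stand in order of cluster rank, each with the 250 bases before the start in the RefSeq GRCm38.p6 assembly, 5′ to 3′ on the strand of the gene. Capitals mark matches to AGGAAGT and, where present, to the RUNX letters TGTGGT or to the IRF letters, which are GAAA, any 2 bases and GAAA again, on either strand.
Gm14321, chr2:167777241-167777490, plus strand: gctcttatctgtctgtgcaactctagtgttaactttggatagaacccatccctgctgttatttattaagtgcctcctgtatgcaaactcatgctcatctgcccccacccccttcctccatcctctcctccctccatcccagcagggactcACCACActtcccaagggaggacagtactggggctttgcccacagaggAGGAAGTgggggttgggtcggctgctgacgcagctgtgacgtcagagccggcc
Gm40103, chr3:98026109-98026358, minus strand: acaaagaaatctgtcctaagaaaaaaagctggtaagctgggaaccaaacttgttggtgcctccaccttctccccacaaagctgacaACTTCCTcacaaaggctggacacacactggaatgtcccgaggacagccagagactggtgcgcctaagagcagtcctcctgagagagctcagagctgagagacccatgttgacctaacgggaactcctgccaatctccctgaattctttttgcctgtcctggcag
Gm34403, chr2:170184768-170185017, minus strand: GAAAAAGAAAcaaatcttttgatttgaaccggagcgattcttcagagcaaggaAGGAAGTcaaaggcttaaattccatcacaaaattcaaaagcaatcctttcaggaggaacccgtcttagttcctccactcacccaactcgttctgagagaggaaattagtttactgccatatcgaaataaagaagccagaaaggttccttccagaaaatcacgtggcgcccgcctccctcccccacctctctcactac
Sema4b, chr7:80198338-80198587, plus strand: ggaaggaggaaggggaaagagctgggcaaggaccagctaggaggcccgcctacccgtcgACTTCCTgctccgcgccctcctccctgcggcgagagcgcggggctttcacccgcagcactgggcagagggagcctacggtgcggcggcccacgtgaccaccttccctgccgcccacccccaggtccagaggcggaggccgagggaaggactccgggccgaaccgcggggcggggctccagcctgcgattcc
Morrbid, chr2:128429352-128429601, minus strand: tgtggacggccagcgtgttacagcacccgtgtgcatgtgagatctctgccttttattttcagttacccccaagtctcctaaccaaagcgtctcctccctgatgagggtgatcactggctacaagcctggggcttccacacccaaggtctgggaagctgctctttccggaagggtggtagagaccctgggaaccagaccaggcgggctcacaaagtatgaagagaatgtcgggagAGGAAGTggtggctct

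The Gm14321 start lies in the Cebpb cluster, in a region of 3331 bp (chr2:167774921-167778251) that is the widest of the cluster. Peaks covered 3285, 3285 and 3306 bp of it in the DTR libraries and 3305, 2769 and 2758 bp in the WT libraries, so the WT1 library sat with the DTR libraries. Gm40103 lies in the Notch2 cluster, Gm34403 in the Zfp217 cluster and Morrbid in the cluster named after Spdye4c. The AP-1 letters TGANTCA were in 11.4% of member windows, 6% of windows in the other shared regions away from gene ends and 6.77% of all windows. Shares lay closer together for the other motifs. The C/EBP letters TTGCNNAA were in 11.4%, 9.59% and 9.66%, the RUNX letters in 13.8%, 13% and 14%, and the IRF letters in 3.25%, 2.23% and 2.98%, in the same order.

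The second set sets 2 starts inside members beside the gene-end promoters that name the widest clusters. CG pairs, the substrate of DNA methylation in mammals, are dense in promoters of widely used genes. Member windows held a median of 8 CG pairs in 250 bases, with 14 in those of protein-coding and 6 in those of lncRNA genes, against 12 in windows inside the other shared regions away from gene ends, 19 in windows inside shared gene-end regions and 6 in all windows. Runx3 and Nr4a1 are starts inside member regions, with 38 and 34 pairs, well above the median of their kind. The windows of Thada and Cebpb, the genes that name the 2 widest clusters, lie at gene ends outside the members, with 14 and 41 pairs. Capitals mark CG.
Runx3, chr4:135152295-135152544, plus strand: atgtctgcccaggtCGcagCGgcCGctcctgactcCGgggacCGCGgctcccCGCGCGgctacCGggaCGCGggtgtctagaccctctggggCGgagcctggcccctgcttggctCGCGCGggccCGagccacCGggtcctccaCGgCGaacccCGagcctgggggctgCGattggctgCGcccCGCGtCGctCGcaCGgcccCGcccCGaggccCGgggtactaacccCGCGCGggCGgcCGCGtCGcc
Nr4a1, chr15:101266596-101266845, plus strand: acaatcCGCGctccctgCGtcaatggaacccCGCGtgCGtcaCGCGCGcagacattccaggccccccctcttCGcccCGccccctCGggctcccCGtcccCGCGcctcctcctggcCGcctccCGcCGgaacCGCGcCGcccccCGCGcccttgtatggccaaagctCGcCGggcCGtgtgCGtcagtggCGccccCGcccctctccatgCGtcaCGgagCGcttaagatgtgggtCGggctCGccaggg
Thada, chr17:84466209-84466458, minus strand: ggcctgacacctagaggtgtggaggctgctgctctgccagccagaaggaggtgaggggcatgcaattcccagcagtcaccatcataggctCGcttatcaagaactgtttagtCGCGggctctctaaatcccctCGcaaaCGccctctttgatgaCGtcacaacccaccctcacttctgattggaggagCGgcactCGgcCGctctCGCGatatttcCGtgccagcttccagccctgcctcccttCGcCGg
Cebpb, chr2:167688665-167688914, plus strand: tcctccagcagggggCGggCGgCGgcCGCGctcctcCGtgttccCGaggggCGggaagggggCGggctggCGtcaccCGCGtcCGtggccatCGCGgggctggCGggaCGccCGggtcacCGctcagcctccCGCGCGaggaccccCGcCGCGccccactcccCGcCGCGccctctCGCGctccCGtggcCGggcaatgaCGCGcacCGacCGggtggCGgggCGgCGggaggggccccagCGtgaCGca

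Summed width ran from 8910 to 34265 bp over the 300 clusters, with a median of 10954 bp in a median of 14.5 regions. Spans ran from 34.9 to 247 kb, with a median of 77.6 kb, and came to 24.7 Mb in all, of which member regions filled 3.61 Mb. There was no break in width at rank 300. Pgs1 (rank 299) and Snx13 (rank 300) were inside and Hes1 (rank 301) outside, all at 8910 bp, and Dock8 (rank 302) had 8909 bp. The order of chromosome names settled that tie.

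**Figure D1:**
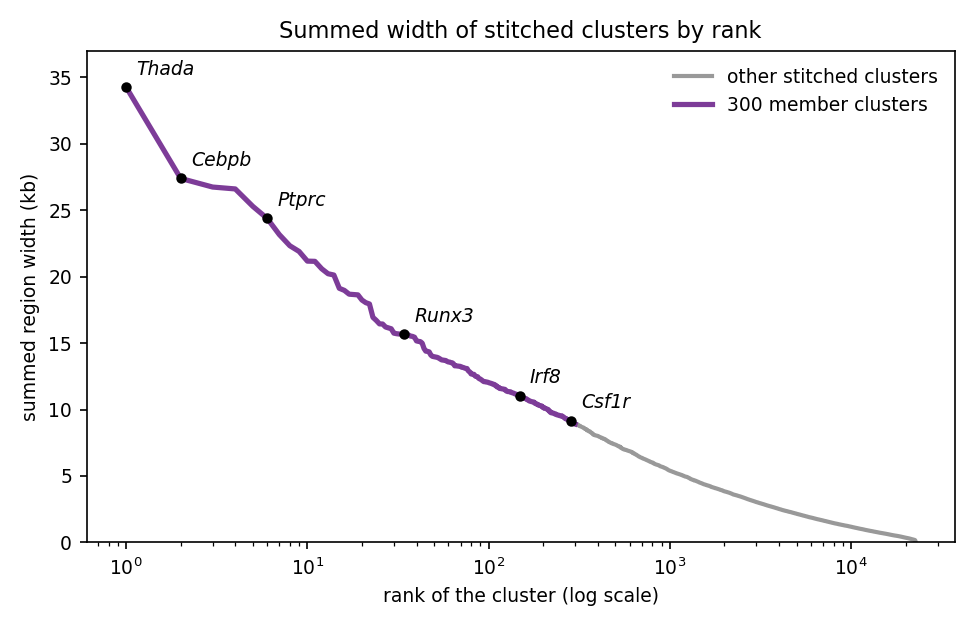
Summed region width (kb) of each of the 22586 stitched clusters against its rank on a log scale, with the 300 members in purple and 6 clusters marked. Summed width is 34265 bp at Thada, 27392 bp at Cebpb and 8910 bp at rank 300.

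The widest cluster reached into the body of Thada and spanned Zfp36l2, which encodes a protein that binds AU-rich messenger RNAs and speeds their decay. It had the most regions of any member (43) and the longest span, chr17:84028423-84275611. Peaks covered 29607, 29612 and 30124 bp of it in the DTR and 29734, 27708 and 29182 bp in the WT libraries, and the groups overlapped.

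The next cluster began 7428 bp from Cebpb, which encodes C/EBPβ, a factor that monocytes of the non-classical kind need for survival. It held 35 regions and 27392 bp over chr2:167697861-167864761, and no part of a protein-coding gene lay inside that span. Covered length was 24325, 24695 and 24782 bp in the DTR and 24948, 22171 and 22654 bp in the WT libraries. Here WT1 was the highest of the 6 libraries and WT2 and WT3 the lowest. A further cluster, at Ptpn1, which encodes a tyrosine phosphatase that dampens cytokine signals, followed after a gap of 20.8 kb.

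The first 20 ranks were otherwise filled by clusters named after immune genes and genes of wide use. Ankrd11 (26744 bp), a chromatin regulator, and Irf2 (26601 bp), an interferon regulatory factor, came next. Notch2 (25291 bp) encodes a receptor with a part in the fate of monocytes, and Ptprc (24384 bp) the leukocyte phosphatase CD45. Prex1 (23167 bp) encodes an activator of Rac in migrating myeloid cells. The cluster at rank 10 (21169 bp) spanned the whole of Pdcd1lg2 and a part of Cd274, the genes of the PD-1 ligands. Trib1 (21153 bp), 50637 bp from its cluster, encodes a pseudokinase that sends C/EBPα to degradation. Plac8 (20592 bp) is a marker of classical monocytes. The cluster named after Ahdc1 (20220 bp) spanned the whole of Fgr, a Src family kinase of myeloid cells. That of Plcg2 (18966 bp) overlapped the gene of the phospholipase downstream of Fc receptors. Zfp217, Tomm20, Sema4b, Lrrfip1, the ETS repressor gene Etv6, Stk10, Mbp and Ptprj made up the rest, between 22328 and 18240 bp.

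**Figure D2:**
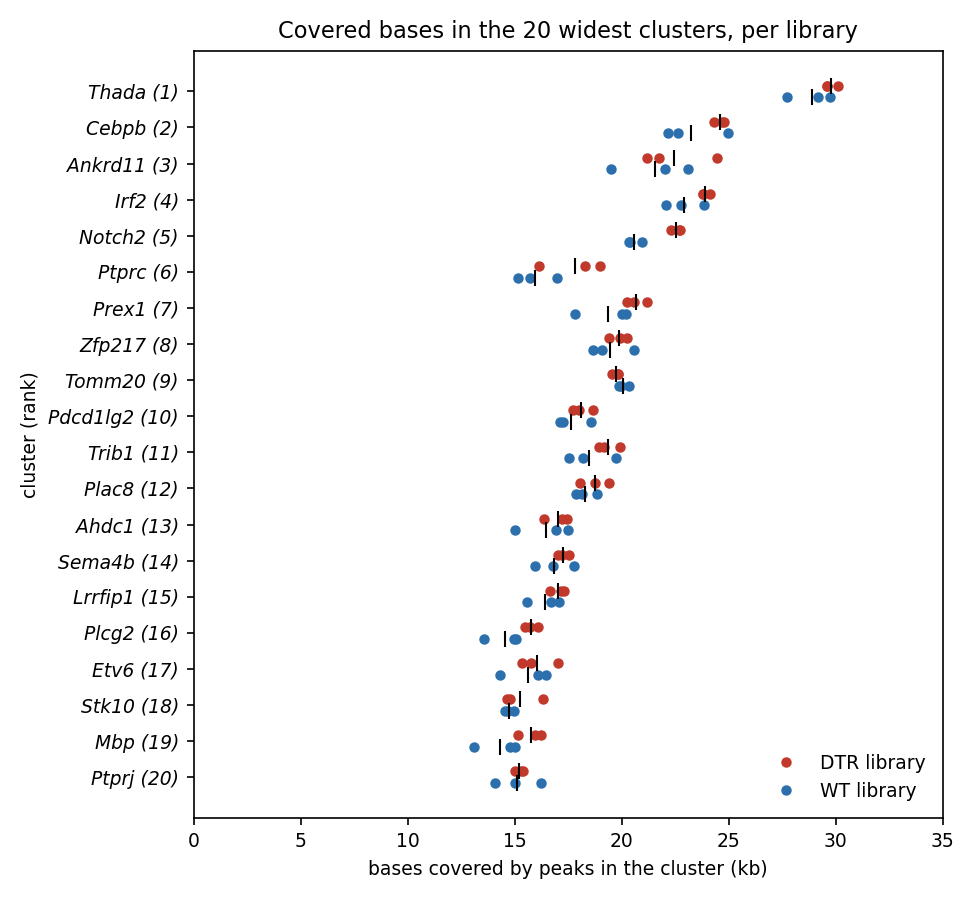
Bases covered by peaks (kb) in each of the 20 widest clusters, with 1 point per library, DTR in red and WT in blue, and a black bar at each group mean of 3. The groups overlap in most clusters, while at Notch2 the DTR libraries (22285 to 22703 bp) lie above the WT libraries (20363 to 20930 bp).

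How evenly the libraries filled a cluster varied between clusters. Bases covered in all 6 libraries made up 71.9% of the summed member width. Per cluster the share ran from 40.1% at Ptprc to 90.0% at Tex14, with a median of 73.0%. In the Ptprc cluster, 18282, 16144 and 18977 bp were covered in the DTR and 16959, 15179 and 15700 bp in the WT libraries. At Nr4a1, the factor that non-classical monocytes depend on, the shared part came to 84.4%, and covered length was 10121, 10535 and 10201 bp against 10562, 10467 and 10303 bp. Among member regions, 4441 (95.8%) had exactly 1 peak in every library, against 97.3% of the other shared regions away from gene ends. A single region made up a median of 15.5% of a cluster's width, from 6.93% at Thada to 32.7% at Ccr1, a chemokine receptor gene.

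**Figure D3:**
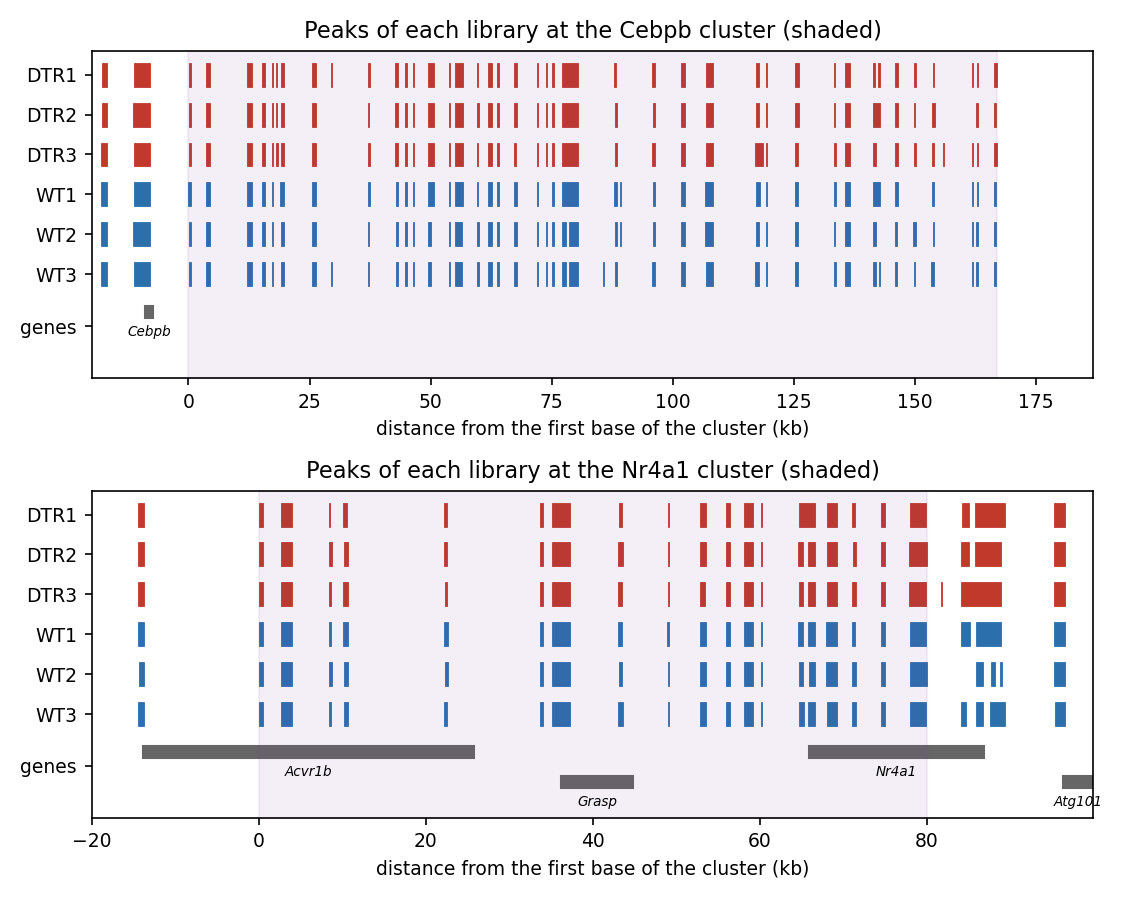
Peaks of each library (DTR red, WT blue) against distance in kb from the first base of the Cebpb and the Nr4a1 cluster (shaded), with protein-coding gene bodies in grey below. The Cebpb cluster starts 7428 bp beyond the gene and holds no protein-coding gene. The Nr4a1 cluster takes in a part of Acvr1b, the whole of Grasp and a part of Nr4a1.

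Member regions were wider than the other shared regions away from gene ends (median 677 against 584 bp), and 2.46% against 1.09% were wider than 2000 bp, as the rule favours. Their enrichment was lower. The authors' fold, averaged over the peaks of a region, had a median of 4.80 to 4.91 in the member regions of the DTR libraries and 4.71 to 4.92 in those of the WT libraries, against 5.63 to 5.79 and 5.50 to 5.59 in the other regions. Folds were not compared at matched width. In place, members resembled the rest, with 54.3% of regions in a protein-coding gene body (53.6% of the others), 12.3% outside these in an lncRNA gene (9.71%) and 33.5% in neither (36.7%).

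To compare clusters within a library, each cluster's width-weighted mean fold was ranked among all 22586, as a percentile. Member clusters with the lowest median percentiles were the second cluster of Rap1b, a small GTPase gene (2.0), then Cytip (5.68), Ccr1 (6.61), Il17ra (6.86) and Spi1 (7.40). Spi1 encodes PU.1, and its cluster held 11 regions and 9639 bp over chr2:91084563-91139344. Its percentile was 6.54, 5.03 and 6.31 in the DTR and 8.37, 8.25 and 8.60 in the WT libraries. The highest medians were at Nup160 (77.3), Tnfaip3 (70.9), an inhibitor of NF-κB, Btbd16 (70.1), Hk2 (69.9), a hexokinase gene, and Zfp385a (69.2).

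Clusters were spread unevenly over genes and chromosomes. In 249 clusters the name is that of the gene body with the most member bases, and 51 were named after the nearest gene, at a median of 18111 bp. Of these, 14 lay more than 50 kb away, the farthest 182960 bp from Jarid2, a partner of the Polycomb complex. The span of 50 clusters touched no protein-coding gene and that of 79 held at least 1 whole gene. In 10 cases a gene named a pair of clusters, among them Id2, Fos, Irf2bp2, Elmo1 and Zmiz1, so 290 genes named the 300. Members of 19 pairs lay within 50 kb of each other. Cox4i1 and Irf8 were 15.3 kb apart, and Irf2bp2 and Tomm20 14.3 kb, so a larger gap would join them. Chromosome 2 had the most member clusters (30) and chromosome 16 the fewest (8). Per 1000 shared regions away from gene ends the rate was highest on chromosome 15, at 8.39, and lowest on chromosome 3, at 3.24.

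Genes of myeloid regulation were frequent beside the members. Over all 20661 protein-coding genes, 1.61% had a member region in the body and 3.75% within 50 kb, and among the 12660 with a shared gene-end peak 5.17% had one within 50 kb. Of 44 myeloid transcription factor genes, 16 (36.4%) had a member region within 50 kb and 14 in the body. Long genes meet a member more easily: the median length of the genes hit in the body was 54.5 kb, against 17.5 kb for all. The lists were written by hand with results of these data known, so their shares are a description.

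Among the factors, the ETS family gave Etv6 (18681 bp), Fli1 (12940 bp), Elf1 (11572 bp) and Spi1 (9639 bp). Runx2 (16141 bp) and Runx3 (15665 bp) came from the RUNX family. IRF genes beside members were Irf2, Irf1 (in a cluster of 15530 bp named after Slc22a5) and Irf8 (11037 bp), the last a factor needed for classical monocytes. The BACH repressors gave Bach1 (11059 bp) and Bach2 (10888 bp), and Rxra, Prdm1 and Zeb2 overlapped clusters of 9738, 9333 and 8991 bp. Runx3 was covered over 14363, 13023 and 13490 bp in the DTR and 13482, 12914 and 13069 bp in the WT libraries. Irf8 was covered over 8898, 8534 and 9899 bp against 8933, 8502 and 8585 bp. Both genes had overlapping groups.

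Receptor genes for cytokines and growth factors were beside members in 6 of 14 cases (42.9%). Csf1r, the receptor that monocytes need for survival, overlapped a cluster of 9157 bp. That cluster was covered over 8136, 8699 and 8867 bp in the DTR and 7996, 7957 and 8214 bp in the WT libraries. One DTR value lay inside the WT range there. The others were Tnfrsf1b, Il6st, Tgfbr1, Il10ra and Il17ra. Near members were 4 of 15 phagocytosis and Fc receptor genes (26.7%), namely Plcg2, Syk, Elmo1 and Pik3cg, all kinases, lipid enzymes or Rac regulators downstream of receptors. Adhesion and migration genes gave 4 of 17 (23.5%), with Dock10, Selplg, Ccr1 and Cd44. Atf3, Fos, Tnfaip3 and Nfkb1 made 4 of 16 (25%) for AP-1 and NF-κB factors. Of 24 histone and DNA modifying enzymes 4 (16.7%) were near members, with Arid1b, Dnmt3a and Hdac7 hit in the body.

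Marker lists of cell types were hit less evenly. Over all protein-coding genes the share was 3.75%, at which lists this short would often give 0 or 1 hit. Such counts below are therefore not read as presence or absence of a cell type. A member lay within 50 kb of 4 of 15 classical monocyte markers (26.7%), among them Plac8, F13a1 and Itgam, which encodes CD11b. Ly6c2, Ccr2 and Lyz2 had none. Nr4a1 was the single hit of 13 non-classical markers. Neutrophil markers gave 2 of 14, Ltf and Mpo, and megakaryocyte and platelet markers gave 1 of 15, Selp. Erg made 1 of 8 stem and progenitor markers, and Epx, an eosinophil peroxidase gene, 1 of 11 basophil, mast cell and eosinophil markers (9.09%). Macrophage, dendritic cell, B cell, T and NK cell, erythroid and non-blood lists gave 0 of 14, 0 of 10, 0 of 12, 0 of 15, 0 of 10 and 0 of 15. The 22 interferon response genes gave 0, inflammatory cytokine genes 3 of 18 (Osm, Ccl3 and Ccl4), Toll-like receptor signalling 1 of 13 (Tlr9) and lysosome genes 1 of 13 (Psap). Ribosomal protein genes gave 2 of 12 and oxidative phosphorylation 1 of 13.

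**Figure D4:**
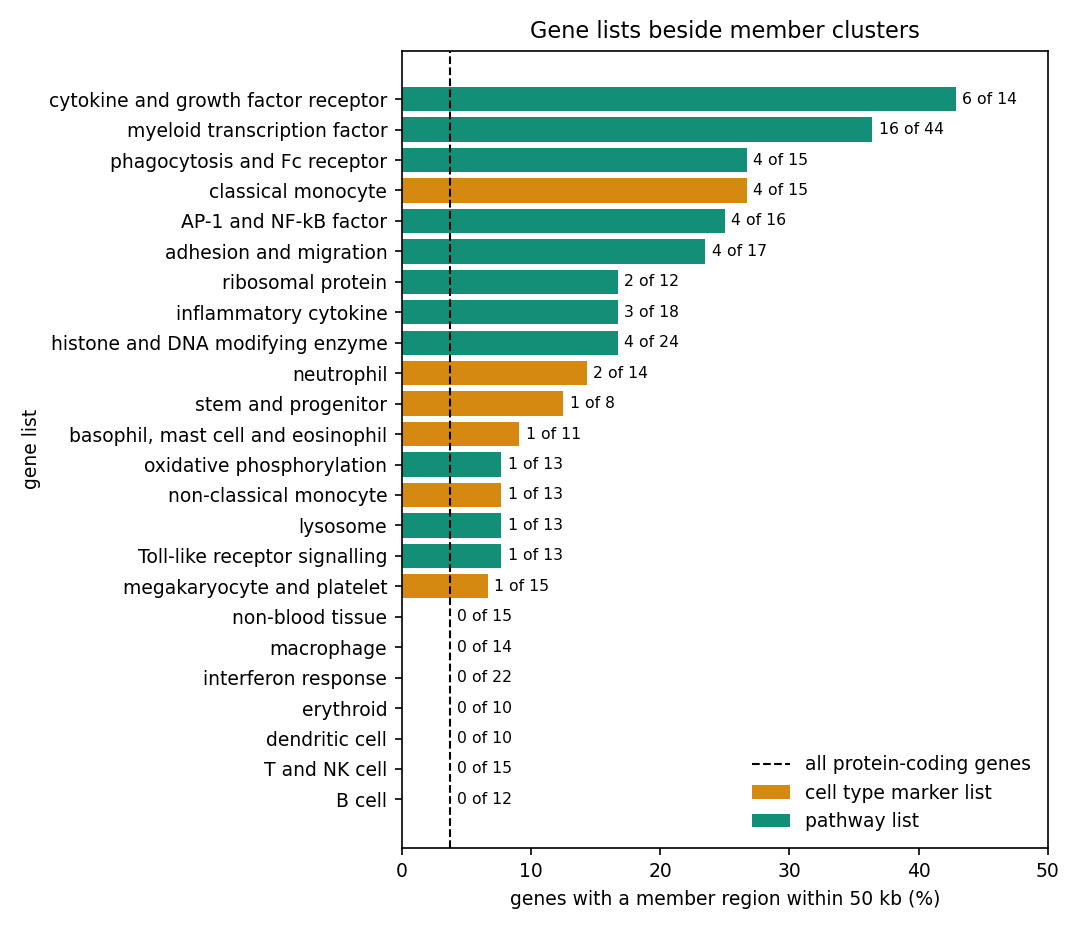
Share of the genes of each list (%) with a member region within 50 kb, with counts beside the bars, cell type markers in orange and pathways in green. The dashed line is the share over all protein-coding genes, 3.75%. The receptor and transcription factor lists lie highest, at 42.9% and 36.4%.

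MicroRNAs inside cluster spans numbered 23 of the 919 microRNA genes of the reference table. Those of a hand-made list of myeloid microRNAs are shown with the seed, bases 2 to 8, in capitals, because the seed sets which messenger RNAs a microRNA binds. A member region lay within 50 kb of 6 of the 27 genes of that list (22.2%), against 46 of all 919 (5.01%). It overlapped the hairpin of 1 of the 27 and of 4 of the 919. Neighbouring hairpins were counted singly in all these shares. Among the 6, miR-29a lies beside miR-29b-1, and miR-23a beside miR-27a and miR-24-2, so the 6 hits are not independent.
miR-142a-5p: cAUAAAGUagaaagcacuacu
miR-142a-3p: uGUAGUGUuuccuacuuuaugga
miR-29a-3p: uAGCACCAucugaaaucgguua
miR-29b-3p: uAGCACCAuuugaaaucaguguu
miR-23a-3p: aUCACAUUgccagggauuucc
miR-27a-3p: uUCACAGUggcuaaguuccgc
miR-24-3p: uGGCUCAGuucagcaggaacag

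The hairpin of miR-142, a microRNA specific to blood cells, overlapped a member region of 2194 bp at chr11:87754732-87756925, in the cluster named after Tspoap1 that also holds Mpo. The 3p arm ended at the last base of that region, so the hairpin is not shown to lie whole inside it. Peaks covered 2194, 1488 and 2170 bp of that region in the DTR and 2168, 2113 and 2120 bp in the WT libraries, so DTR2 alone was short. Which of these peaks reached the hairpin was not tested. Both arms have different seeds. The hairpins of miR-29a and miR-29b-1, whose arms share the seed AGCACCA, lay 2675 and 2329 bp from a member region of the cluster named after Klf14. Those of miR-23a, miR-27a and miR-24-2, encoded together, lay 417, 571 and 714 bp from a member region of 258 bp in the cluster named after Zswim4. That region was covered over 245 to 256 bp in all 6 libraries.

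The study's comparison is between monocytes of thrombocytopenic and control mice. Peaks in members covered 3.16, 3.14 and 3.20 Mb in the DTR libraries and 3.14, 2.91 and 3.01 Mb in the WT libraries. Each DTR value exceeded each WT value, although DTR2 and WT1 differed little. The means were 3.17 ± 0.0333 and 3.02 ± 0.112 Mb (SD, n = 3 each), a difference of 0.148 Mb with a two-sided exact permutation p of 0.1, the smallest that 3 against 3 libraries can give. As a share of each library's own covered bases, members made up 6.460%, 6.677% and 6.549% in the DTR and 6.737%, 6.804% and 6.632% in the WT libraries. On that scale the order turned, with a difference of -0.162 percentage points (exact permutation p = 0.2) and overlapping groups. The number of peaks in members was 4709, 4705 and 4680 against 4692, 4772 and 4746 (exact permutation p = 0.3).

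Per cluster, covered length was compared by limma on log2 covered bases, fitted over all 22586 clusters with Benjamini-Hochberg adjustment and a threshold of 0.05. None of the 300 members passed, against 34 of all clusters (0.151%), 31 of them longer (0.137%) and 3 shorter (0.0133%) in DTR libraries. At an unadjusted p under 0.05 there were 42 members (14.0%) and 9.08% of all clusters. The smallest adjusted p of a member was 0.306, at Notch2. Its covered length of 22285, 22703 and 22684 bp in the DTR and 20930, 20401 and 20363 bp in the WT libraries gave a log2 difference of 0.13 (SE 0.03). The median log2 difference was 0.064 in members, a 1.046-fold longer covered length in DTR libraries, and 0.063 in all clusters, and it turned to -0.027 in members when each library was centred on its median.

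Differences of members leaned one way more often than those of all clusters on the uncentred scale. The fitted difference was above 0 in 276 members (92.0%) and in 74.8% of all clusters. Members held at least 8 regions and all clusters a median of 1, and this share was not compared at matched size. Every DTR library exceeded every WT library in 72 members (24.0%), against 15.5% of all clusters, and lay below every WT library in 2 (0.667%), against 1.49%. Without the WT1 library the first count was 163 members (54.3%) and 30.4% of all clusters, and without DTR2 it was 114 (38.0%) and 26.8%. Leaving out a library can only keep or raise such a count, so nothing is read from the rise. Among the 662 other clusters with at least 8 regions, the first share was 20.4%. The lists of the 2 groups differ in covered length over the whole genome, and the part of that difference in these counts was not tested.

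The percentile of fold was lower in DTR libraries. The median over members was 34.0, 33.0 and 33.0 in the DTR and 35.8, 37.8 and 38.7 in the WT libraries, 33.3 ± 0.571 against 37.4 ± 1.45 (SD, n = 3 each, exact permutation p = 0.1). Every DTR library lay below every WT library in 125 members (41.7%), against 12.0% of all clusters, and above in 0, against 7.23%. Without WT1 the first count was 214 (71.3% of members and 21.9% of all clusters), though leaving out a library can only keep or raise it. In the 662 other clusters with at least 8 regions, 34.6% were below and 0.755% above. The median difference was -3.81 percentile points in members, -3.67 in those 662 clusters and -0.750 in all. By limma with adjustment over all clusters, 0 members passed, against 3 clusters in all (0.0133%), each of the 3 higher in DTR libraries. An unadjusted p under 0.05 was found in 31 members (10.3%) and 12.1% of all clusters. Taking the highest peak of each cluster in place of the mean made the members' median -1.46.

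For Csf1r the percentiles were 33.1, 30.8 and 27.4 in the DTR and 34.8, 41.5 and 39.4 in the WT libraries, a difference of -8.12 (SE 3.62, limma adjusted p = 0.437). Rxra, which encodes a nuclear receptor, had 17.6, 22.0 and 16.7 against 24.6, 25.3 and 26.8, with an adjusted p of 0.372 from limma. Prdm1, which encodes the repressor Blimp-1, went the other way, with 45.1, 48.5 and 43.0 against 44.9, 36.8 and 46.9 and overlapping groups.

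Single regions did pass. With limma fitted over all 67099 shared regions, 12 of the 4635 members had an adjusted p under 0.05 (0.259%), 11 longer in DTR and 1 shorter, against 153 regions in all (0.228%), 142 longer (0.212%) and 11 shorter (0.0164%). The members' share is near that of all regions. The median log2 difference over members was 0.034, against 0.044 over all regions, and turned to -0.045 in members after centring.

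**Figure D5:**
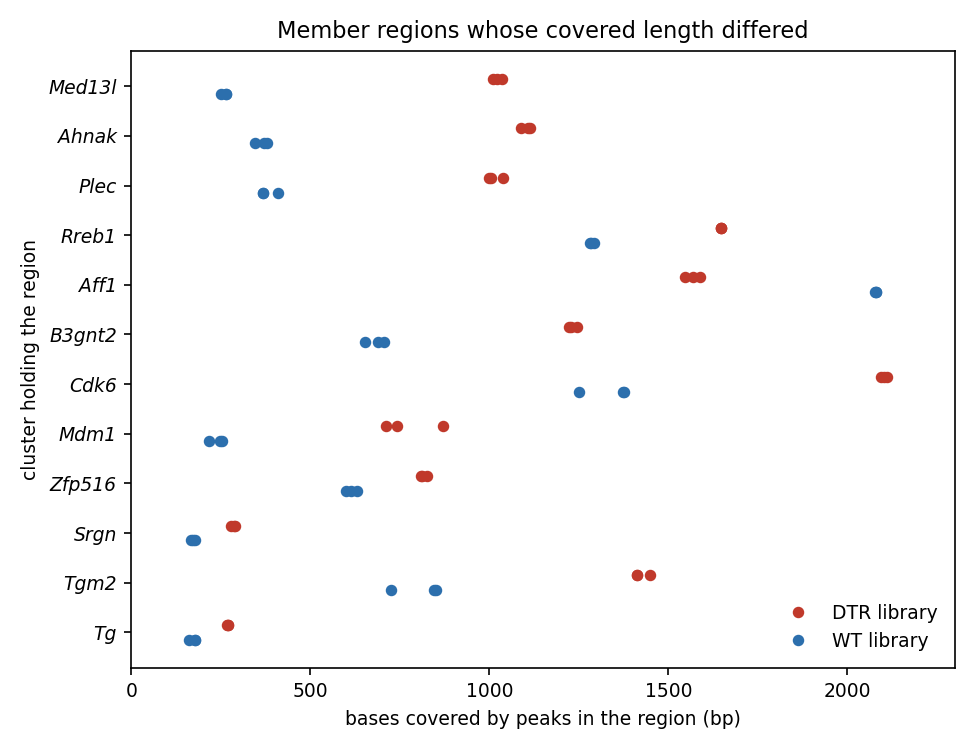
Bases covered by peaks in each of the 12 member regions whose covered length differed, with 1 point per library, DTR in red and WT in blue. The DTR libraries lie above the WT libraries in 11 regions and below them at Aff1.

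The largest difference was in the body of Med13l, which encodes a subunit of the kinase module of Mediator. In the region chr5:118644464-118645504, peaks covered 1021, 1035 and 1011 bp in the DTR and 250, 265 and 264 bp in the WT libraries, a log2 difference of 1.98 (SE 0.05, limma adjusted p = 0.000854). The right edges of the peaks lay between bases 1003 and 1041 of the region in all 6 libraries. The added bases lay on the left, where DTR peaks began on average 746 bp earlier. Ahnak, Plec and Cdk6 followed that form. In the Ahnak body, 1088, 1109 and 1112 bp were covered against 378, 346 and 371 bp, with 726 bp of the difference on the left (log2 1.60, limma adjusted p = 0.00140). In the Cdk6 body, 2095, 2103 and 2110 bp were covered against 1372, 1251 and 1377 bp. Cdk6 encodes a kinase of the cell cycle.

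Regions in the clusters of Plec (1014 against 382 bp on average), B3gnt2 (1232 against 682 bp) and Mdm1 (775 against 239 bp) also grew on the left in DTR libraries, and those of Rreb1 (1646 against 1285 bp) and Zfp516 (815 against 614 bp) on the right. The regions in the Srgn and Tg clusters were short, at 284 against 171 bp and 269 against 172 bp. In the Tgm2 cluster, 1 peak in each DTR library stood where WT2 and WT3 had a pair. Over the 11 regions that were longer in DTR the log2 difference ran from 0.36 to 1.98. The authors' highest fold in the region was lower in every DTR than in every WT library at Med13l, Plec, Cdk6, Zfp516, Srgn and Tgm2. At Med13l it was 4.33, 3.66 and 3.56 against 4.84, 5.30 and 5.68. In the rest of the longer regions the folds of the groups overlapped. Most of these regions held a single peak per library, and each peak has a single fold whatever its length. Length and enrichment therefore cannot be told apart here, and whether these sites were more open was not tested.

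The region that was shorter in DTR libraries holds transcript starts of Aff1, a scaffold of the super elongation complex. In chr5:103752760-103754881, peaks covered 1588, 1570 and 1547 bp in the DTR and 2081, 2078 and 2079 bp in the WT libraries, a log2 difference of -0.41 (SE 0.02, limma adjusted p = 0.00321). WT peaks ran on average 531 bp farther to the right. One RefSeq start of Aff1, at base 1403 of the region, lay in a peak in all 6 libraries. The other, at base 1814, lay in a peak in 3 of 3 WT and in 0 of 3 DTR libraries. The 250 bases before that second start are shown because the edge of the DTR peaks falls inside them. Capitals mark the 191 bases in the peaks of all WT libraries and of no DTR library.
Aff1, chr5:103754323-103754572, plus strand: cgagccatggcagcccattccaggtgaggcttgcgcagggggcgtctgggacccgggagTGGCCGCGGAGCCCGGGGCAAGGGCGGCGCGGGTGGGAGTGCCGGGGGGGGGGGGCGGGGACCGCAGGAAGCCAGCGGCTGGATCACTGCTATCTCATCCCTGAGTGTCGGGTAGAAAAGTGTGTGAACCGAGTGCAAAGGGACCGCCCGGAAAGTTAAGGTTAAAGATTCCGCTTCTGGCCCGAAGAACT

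The calls at Med13l, Ahnak, Plec, Rreb1, Aff1 and B3gnt2 held when any 1 library was left out, while each of the other 6 was lost in at least 1 such fit. After centring each library on its median, the calls at Rreb1 (log2 0.28, limma adjusted p = 0.157), Zfp516, Srgn, Tgm2 and Tg were lost. Leaving out WT1 raised the number of members called from 12 to 38, and leaving out DTR2 raised it to 20. A peak that ends at another base says where the caller joined neighbouring signal, and the lists do not show the signal between.

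The spans of the clusters held 5479 regions of any kind, of which 664 (12.1%) lacked a peak in at least 1 library, against 26.7% of regions outside. The spans were built from regions chosen for a peak in every library, so the rule itself lowers that share and nothing is read from it. Regions present in every DTR and in no WT library numbered 23 inside the spans (0.420% of those regions, against 0.794% of all regions), and the reverse 8 (0.146%, against 0.0984%). Most regions of the spans are members, which have a peak in every library. The rule thus lowers these shares as well, and nothing is read from them. The regions of the DTR group lay among others in the clusters of Cebpb (chr2:167715943-167716252), Fli1 (chr9:32529763-32530064), Runx3, Etv6, Erg and Rxra. Those of the WT group lay among others in the clusters of Thada, Notch2, Hdac7, Lpp, Snx9 and Sh3tc2. They were 149 to 697 bp wide. The Cebpb region of 310 bp had an authors' fold of 1.61, 1.66 and 1.66 in the DTR libraries, and the Thada region of 254 bp had 3.44, 4.33 and 4.02 in the WT libraries. Peaks of regions not found in every library numbered 341, 354 and 317 inside the spans in the DTR and 259, 283 and 287 in the WT libraries, a difference of 61.0 (exact permutation p = 0.1). With lists cut to equal length the difference turned to -36.7.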

How the data were processed

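ATAC-seq libraries of mouse monocytes were compared, 3 per group, with groups and replicate numbers taken from the sample titles. The submitters' processing notes name MACS2, fastp, Bowtie and version 2.4.4 of Bowtie2. Tool settings, the genome build and any correction for the transposase offset: not given in the sources used here. The data deposited by the authors are 1 broad peak list per library, called on that library alone, and each peak has a score, a fold enrichment over the caller's background (a ratio) and −log10 values of p and of q, all computed by the authors before deposit. The fold served to rank or describe peaks within a list. For the member regions longer in DTR its values are also set side by side between libraries, without a test. No read counts were used, so no interval can be given for a peak.

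Peaks were merged, classed and stitched as described in the report, with gene ends from a RefSeq gene table of GRCm38 whose own coordinates are not printed. Per chromosome, 44.3% to 65.2% of protein-coding start windows overlapped a shared region, against 3.43% to 7.94% after a shift of 5 or 20 kb. Covered length is the number of bases under a library's peaks. Differences were fitted with limma 3.58.1 in R 4.3.3 (moderated variance with a trend) over all clusters or all shared regions, using the 6 libraries and no covariate. Totals over members were compared by exact two-sided permutation, whose smallest p is 0.1. The fitting script was tested on simulated data with seeded changes.

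Named clusters are the 20 widest, those around rank 300, the 5 highest and 5 lowest by fold percentile, those with the smallest adjusted p, and listed genes whose body meets a member. Genes near but outside members, the starts whose sequence is shown, other than those of Thada and Cebpb, and clusters named for their group-only regions were chosen after their values were seen. The members, gene lists and tests were chosen with earlier results of these data known. Alternatives were stricter or equally long peak lists, other stitching gaps, gene-end windows, rankings and cluster numbers, centring, no trend, a minimum of 200 bp covered, the maximum fold, the replicate block and each library left out. The leave-one-out counts of clusters without overlap between groups, and the comparison with other clusters of at least 8 regions, were added after seeing the data.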

Additional observations from a re-analysis of the deposited data

How the results depend on the processing

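In every alternative that was run, 0 members passed in the 2 tests per cluster. The number of all clusters called for covered length was 0 to 127 when 1 library was left out, 19 after centring each library on its median and 84 with a stitching gap of 5 kb, against 34. Centring turned the members' median log2 difference to -0.027 per cluster and -0.045 per region. For the fold percentile, the number of all clusters called was 0 to 0 when 1 library was left out, 0 with peaks of a q of at most 1e-05 and 0 with the 5 kb gap, against 3, and the members' median difference was -1.46 with the maximum fold. Members with every DTR library above every WT library in covered length numbered 75 to 163 without 1 library, and those with every DTR library below in fold percentile 138 to 214. Leaving out a library can only keep or raise these 2 counts. Member regions called numbered 10 to 38 without 1 library, most without WT1, and 7 after centring, and all regions called 91 to 545. With lists of equal length the difference in peaks not found in every library turned to -36.7. Of the 300 clusters, 111 overlapped a member at a gap of 5 kb, 177 at 25 kb, and 150 with 150 clusters, the last by construction. The cause of the other changes was not tested. Of the values recomputed for single clusters and regions, 234 stayed in direction and call, 42 stayed in direction alone and 22 turned sign; none of the clusters whose value turned sign had been called. Centring turned the log2 covered length difference at Thada to -0.046, Cebpb -0.008, Ankrd11 -0.030, Irf2 -0.028, Zfp217 -0.059, Pdcd1lg2 -0.051, Trib1 -0.023, Plac8 -0.055, Ahdc1 -0.042, Sema4b -0.055, Lrrfip1 -0.039, Etv6 -0.050, Stk10 -0.042 and Ptprj -0.078. Leaving out 1 library at a time gave -0.009 to 0.114 at Ankrd11, -0.018 to 0.094 at Ahdc1, -0.003 to 0.075 at Sema4b, -0.022 to 0.080 at Etv6, -0.002 to 0.077 at Stk10 and -0.037 to 0.066 at Ptprj, with the values below 0 reached without WT replicate 2, WT replicate 3 or DTR replicate 3.

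The labels do not say whether the replicate numbers pair the libraries. Deviations of same-numbered libraries correlated at -0.0222, 0.0352 and -0.0305, and those of the other pairs at -0.0279 to 0.0510. So few libraries cannot show whether they were paired. With the replicate block, 0 clusters passed for covered length, 0 for the fold percentile, and 0 regions passed, 0 of them members, with fewer residual degrees of freedom. Among the 12 member regions the limma adjusted p then ran from 0.194 to 0.498. Depth is unknown, so a missing peak does not show closed chromatin.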

Other observations

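Single member regions reached 4273 bp. The widest, a region at chr2:32949752-32954024, in the cluster named after Lrsam1, a ubiquitin ligase gene, was covered over 2174, 3305 and 4225 bp in the DTR and 3319, 3281 and 3339 bp in the WT libraries, so the DTR libraries spread on both sides of the WT libraries. A region of 3711 bp in the cluster of Srgn, which encodes the proteoglycan of myeloid granules, was covered over 3131, 3128 and 3111 bp against 3702, 3098 and 3119 bp, where WT1 alone ran longer. In the Ptprc cluster, a region of 3694 bp at chr1:138064391-138068084 was covered over 2627, 2774 and 2748 bp in the DTR and 1981, 1201 and 1541 bp in the WT libraries, without overlap. It did not pass the limma test over all regions.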
